A study of Rattus norvegicus and Homo sapiens with 12 samples.

Results

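The Sprouty, SPRED and dual-specificity phosphatase genes that brake ERK signaling were examined in DU145, a human prostate cancer cell line. PHLDA1, an ERK-responsive gene, was examined with them, and all are called ERK feedback genes below. The set comprised 10 genes named by symbol, SPRY1, SPRY2, SPRY4, SPRED1, SPRED2, SPRED3, DUSP4, DUSP5, DUSP6 and PHLDA1, out of 60107 genes listed for DU145, and each was matched to its row by Ensembl identifier. F0 was the parental population and F2 was the population that recovered after repeated exposure to conditioned media (CM) of human bone marrow mesenchymal stem cells (MSCs), with 3 samples of each. Both populations were kept in DMEM with 10% FBS, and RNA was profiled as QuantSeq libraries, in which each transcript yields 1 fragment next to its poly(A) tail. Sample labels state 2 rounds of 72 h in MSC CM for F2, whereas the series text states 3. A recovery of 48 h is stated for F2 and none for F0. It is not stated whether the 3 F2 samples were selected separately or drawn from a single selected population. The n, SD and p-values therefore describe the spread between samples, which may be technical. The comparison asked whether the level of each gene differed between F2 and F0, and whether SPRY2 followed the other ERK feedback genes.

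ERK is the last kinase of the cascade that runs from growth factor receptors through RAS, RAF and MEK. Active ERK switches on genes whose products damp the same cascade, and transcripts of these genes are widely read as a record of ERK activity. Sprouty proteins act between receptor and RAF, SPRED proteins bind neurofibromin and bring it to RAS at the membrane, and the phosphatases DUSP4, DUSP5 and DUSP6 remove the activating phosphates from ERK and related kinases. PHLDA1 is an ERK-responsive gene with roles in cell survival and receptor signaling that vary between cell types.

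Because the reads come from transcript ends, each value below depends on that end being separable from those of related genes. The ends of the Sprouty pair SPRY1 and SPRY2 are shown since they share a stretch of sequence, and those of SPRED2, DUSP5 and DUSP6 since these 3 are among the genes whose call held without any 1 library. Each line is the last 30 bases of the longest principal transcript in GENCODE 29 on GRCh38, 5′ to 3′, with capitals for the 14-base run that SPRY1 and SPRY2 have in common or for the poly(A) signal AATAAA.
SPRY1: gcAGAAAATATATTAAttaatgaaactgtc
SPRY2: atAGAAAATATATTAAcgtttgaaattaaa
SPRED2: accgtgtaaatataaacacatcctatcaga
DUSP5: taaAATAAAaatagtaaaaggagaaaagca
DUSP6: ataaaaggcaggtgtatggaatcaaaagaa
These ends lie at chr4:123403731-123403760 (plus strand), chr13:80335976-80336005 (minus), chr2:65310851-65310880 (minus), chr10:110511515-110511544 (plus) and chr12:89347232-89347261 (minus), respectively. The shared run occupies the same place in SPRY1 and SPRY2, with 14 more bases between it and the end. It is shorter than a read of 101 bases, and the last 500 bases of all 10 genes matched no other gene's transcript over at least 101 bases at 95% identity or more. AATAAA, read on the transcript's strand, was present in the last 30 bases of 4 of the 10 genes and of 51% of 19620 genes with a principal transcript. Which of several annotated ends the cells used was not measured.

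DU145 libraries held between 15879480 and 16479239 counts assigned to genes. Epithelial markers were detected in every library, with KRT8, KRT18, KRT19, EPCAM and CDH1 summing to 1025–1097 CPM (the counts of a gene divided by a library size scaled with the TMM method and set to a common total) in F0 and 1325–1334 CPM in F2. They did not move together, as KRT19 rose 1.59-fold (log2 fold change 0.67, adjusted p = 8.9e-09, edgeR) while CDH1, the gene of E-cadherin, fell from 14.0 ± 1.79 to 5.78 ± 0.0915 CPM (SD, n = 3 each; -1.27, adjusted p = 7.6e-07). Of 15 MSC markers 6 were at 0 in all libraries, THY1 and SPARC among them, and the sum over the list was 158–178 CPM in F0 and 223–241 CPM in F2, of which NT5E, which was at 147–166 CPM in parental F0 itself, was the main part. Without NT5E the sum was 10.6–11.6 CPM in F0 and 7.33–8.57 CPM in F2. Mitochondrially encoded genes took 5.71–6.0% of counts in the F0 libraries and 10.2–10.6% in those of F2, and when they were left out of the fit 5 of the feedback genes were past the threshold, as with them. Replicates of a population differed by more than counting noise in every pair (chi-square of 2.13–5.53 per degree of freedom), so none looked like the same library deposited again. In F2 the value was 4.01 for replicates 1 and 2, 5.53 for 2 and 3, and 2.13 for 1 and 3. In F0 it was 2.94, 2.17 and 4.99 for the same pairs.

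Feedback genes of ERK were mostly higher in F2. Of the 10 genes 9 had enough counts to be tested with edgeR, 8 were at a higher level in F2, 5 had an adjusted p under 0.05, and all 5 of these were higher (DUSP6, DUSP4, SPRED2, SPRY2 and DUSP5, in order of fold change). Among all 14316 tested genes 18.2% passed this threshold, 9.49% with a higher and 8.67% with a lower level in F2. Of all calls 52.3% were higher in F2, and 22.9% when libraries were scaled by size alone, under which 5 feedback genes had adjusted p under 0.05, 4 of them higher and SPRED1 lower. The median log2 fold change of the 9 genes was 0.49, beside -0.0025 over all tested genes, of which 49.5% were higher. The genes were chosen with earlier results of these data known, so the contrast with all genes is a description and no test. None of the 9 passed the threshold with a change of at least 2-fold, as 1.67% of all tested genes did. RNA from whole cultures was measured, so a rise in every cell and a larger share of cells with a high level cannot be told apart.

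**Figure D1:**
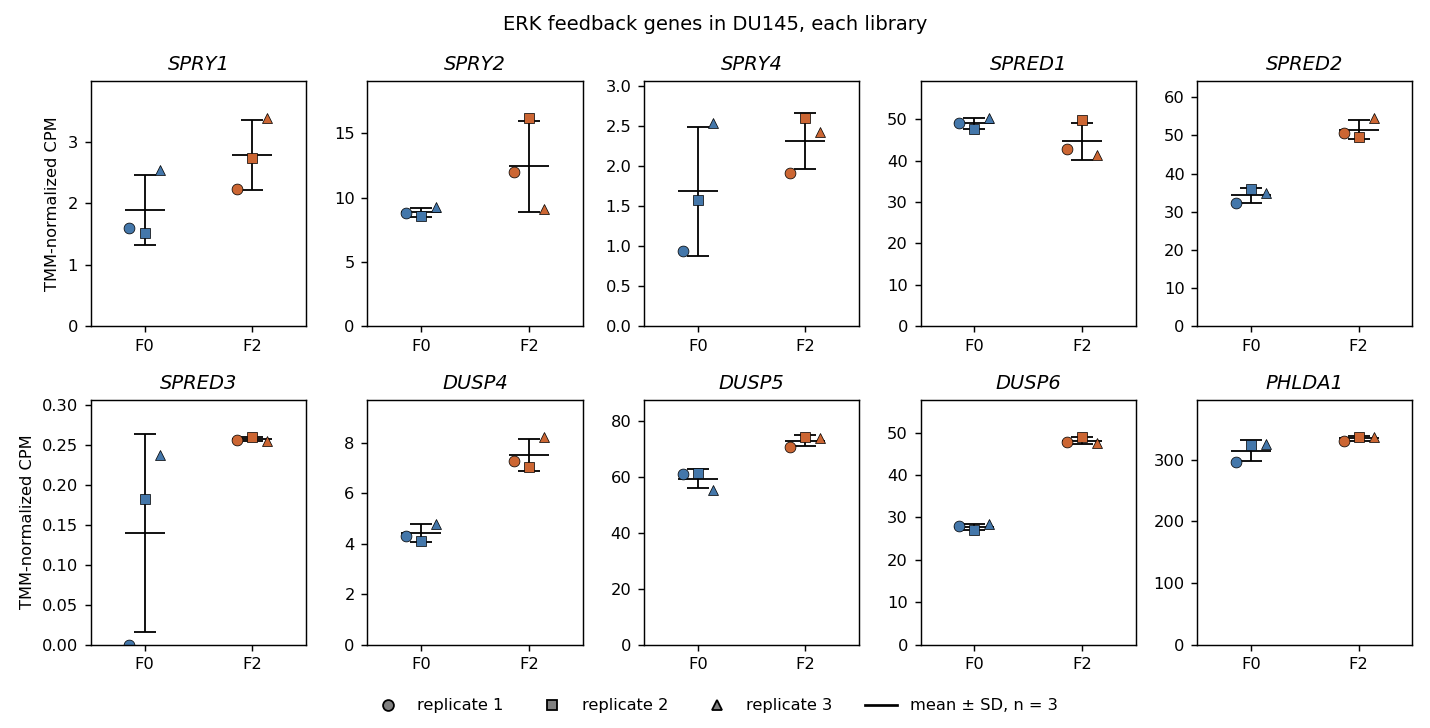
TMM-normalized CPM of each of the 10 genes (vertical axes, each from 0) in the 3 F0 (blue) and 3 F2 (orange) DU145 libraries, with marker shape for the replicate number and bars for the mean ± SD (n = 3). DUSP6, SPRED2, DUSP4 and DUSP5 are separated between populations, whereas F2 replicate 3 of SPRY2 lies within the F0 range.

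Among the tested Sprouty, SPRED and phosphatase genes of the set that were higher in F2, the Sprouty genes had the weakest support. SPRY2 (ENSG00000136158, chr13:80335976-80340951, minus strand) had 8.80, 8.54 and 9.23 CPM in F0 replicates 1 to 3 and 12, 16.2 and 9.12 CPM in F2 replicates 1 to 3. In counts these were 149, 141 and 156 for F0 and 188, 249 and 143 for F2. Replicates 1 and 2 of F2 were above all F0 libraries, while replicate 3 was inside the F0 range, so the populations overlapped. The mean went from 8.86 ± 0.349 to 12.4 ± 3.54 CPM (SD, n = 3 each), and the log2 fold change was 0.49 (95% interval 0.16 to 0.82, adjusted p = 0.036 by edgeR with Benjamini-Hochberg adjustment). On the 6 libraries alone the exact two-sided permutation test gave p = 0.2, where 3 against 3 cannot go below 0.1.

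The SPRY2 call was near the threshold and was lost in most fits with 1 library fewer and with another tool. Its size moved most without F2 replicate 2 or 3, and a fit with fewer libraries also has less power. Leaving out F2 replicate 2 gave a log2 fold change of 0.26 (adjusted p = 0.225, edgeR), and leaving out F2 replicate 3 gave 0.67 (adjusted p = 0.0032). Without F0 replicate 1, 2 or 3 or F2 replicate 1 it stayed between 0.46 and 0.52, with adjusted p of 0.0634, 0.127, 0.0647 and 0.0706, respectively. The call was thus present in 1 of 6 edgeR fits that left out a library, and with DESeq2 the adjusted p was 0.0594.

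SPRY1 and SPRY4, paralogs of SPRY2, had few counts. SPRY1 (ENSG00000164056, chr4:123396795-123403760, plus strand) was at 1.59, 1.51 and 2.54 CPM in F0 and 2.24, 2.73 and 3.38 CPM in F2, from 25 to 53 counts per library. SPRY4 (ENSG00000187678, chr5:142310427-142326455, minus strand) was at 0.945, 1.57 and 2.54 CPM in F0 and 1.92, 2.60 and 2.42 CPM in F2, from 16 to 43 counts. For both genes F0 replicate 3 was the highest F0 library and lay above 1 or more F2 libraries. The log2 fold change was 0.56 for SPRY1 (95% interval 0.02 to 1.10, adjusted p = 0.147, edgeR) and 0.45 for SPRY4 (-0.18 to 1.09, adjusted p = 0.337). The populations overlapped for both genes and neither passed the threshold. The intervals allow values from near 0 or below to more than that of any other feedback gene. Without F0 replicate 3 the value of SPRY1 was 0.84 (adjusted p = 0.0557, edgeR). SPRY3, the remaining Sprouty gene, which was named after its values were seen, had between 2 and 12 counts per library and a log2 fold change of 0.68 (adjusted p = 0.372, edgeR).

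SPRED genes did not move together. SPRED2 (ENSG00000198369, chr2:65310851-65432637, minus strand) was at 32.2, 36.0 and 34.8 CPM in F0 and 50.6, 49.5 and 54.5 CPM in F2. Every F2 library was above every F0 library, and the mean rose 1.5-fold, from 34.3 ± 1.94 to 51.5 ± 2.59 CPM (SD, n = 3 each). Its log2 fold change was 0.59 (95% interval 0.44 to 0.73, adjusted p = 4.6e-06, edgeR). SPRED1 (ENSG00000166068, chr15:38252326-38357249, plus strand) was at 49.2, 47.6 and 50.2 CPM in F0 and 42.9, 49.9 and 41.4 CPM in F2, the 1 tested gene of the set with a lower mean in F2. F2 replicates 1 and 3 lay below the F0 range and replicate 2 within it. The log2 fold change of SPRED1 was -0.13 (95% interval -0.28 to 0.017, adjusted p = 0.220, edgeR), and without F2 replicate 2 it was -0.21 (adjusted p = 0.0309). Scaling by library size alone, which shifts the median over all genes by -0.090, took SPRED1 to -0.22 (adjusted p = 0.0297). The intervals of SPRED1 and SPRED2 did not overlap. SPRED3 (ENSG00000188766, chr19:38388421-38399587, plus strand) had 0, 3 and 4 counts in F0 and 4 in each F2 library, too few to be tested.

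The 3 phosphatase genes of the set all rose. DUSP6, which encodes a cytoplasmic phosphatase specific for ERK, was at 28.0, 27.0 and 28.4 CPM in F0 and 47.8, 49.0 and 47.5 CPM in F2 (ENSG00000139318, chr12:89347232-89353271, minus strand). The replicates of either population lay close together and far from the other population. Its mean rose 1.73-fold, from 27.8 ± 0.748 to 48.1 ± 0.805 CPM (SD, n = 3 each), with a log2 fold change of 0.79 (95% interval 0.65 to 0.93, adjusted p = 6.3e-08, edgeR). An antisense gene overlaps DUSP6 exons, with 7 counts over all 6 libraries beside 3647 for DUSP6.

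DUSP4, a nuclear phosphatase of ERK and of the stress kinases, rose by a similar factor from a lower level (ENSG00000120875, minus strand). It was at 4.31, 4.12 and 4.79 CPM in F0 and 7.29, 7.01 and 8.23 CPM in F2. The populations did not overlap, and the log2 fold change was 0.77 (95% interval 0.46 to 1.08, adjusted p = 0.0010, edgeR), a 1.70-fold rise in the mean from 4.41 ± 0.348 to 7.51 ± 0.635 CPM (SD, n = 3 each).

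DUSP5, a nuclear phosphatase specific for ERK (ENSG00000138166, chr10:110497838-110511544, plus strand), rose less. It was at 61.1, 61.6 and 55.4 CPM in F0 and 70.8, 74.4 and 74.0 CPM in F2. All F2 libraries were above all F0 libraries, and the mean went from 59.4 ± 3.42 to 73.1 ± 1.96 CPM (SD, n = 3 each). Its log2 fold change was 0.30 (95% interval 0.18 to 0.42, adjusted p = 0.0012, edgeR), and this interval lay wholly below those of DUSP6 and SPRED2.

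PHLDA1 (ENSG00000139289, chr12:76025447-76033932, minus strand) differed little. It was at 296, 324 and 326 CPM in F0 and 330, 337 and 337 CPM in F2. The populations did not overlap, but the F2 libraries exceeded the highest F0 library by little, and the log2 fold change was 0.09 (95% interval -0.0087 to 0.18, adjusted p = 0.207, edgeR). With libraries scaled by size alone it was -0.0023, so the sign of the PHLDA1 difference depended on the scaling. That scaling moved the median over all genes by -0.090. Overlapping antisense genes had 84 counts beside 31505 for PHLDA1 over the 6 libraries.

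Across the tested genes of the set, the populations did not overlap for SPRED2, DUSP4, DUSP5, DUSP6 and PHLDA1, all higher in F2. For PHLDA1 the sign of the difference depended on the scaling, as given above. Over all tested genes 34% had populations that did not overlap, 16.9% with F2 higher and 17.1% with F2 lower. The exact permutation p of each of these 5 genes was 0.1, the smallest possible. DUSP6, DUSP4, SPRED2 and DUSP5 were past the edgeR threshold in all 6 fits without 1 library, as 9.29% of all tested genes were. SPRY2 was not among them.

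**Figure D2:**
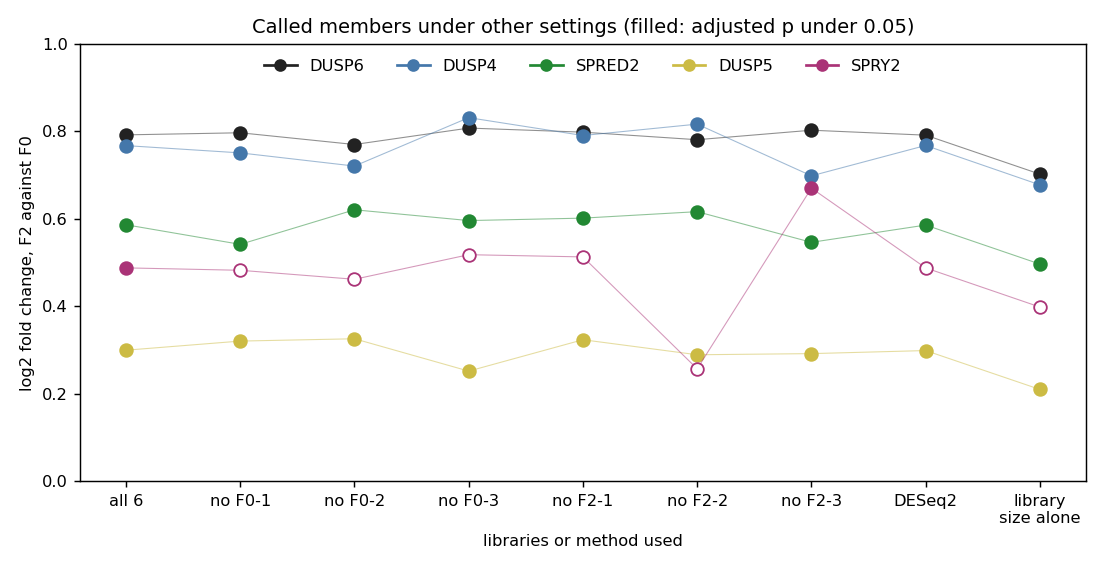
Log2 fold change of F2 against F0 (vertical axis) for the 5 genes past the threshold with all 6 libraries, with each library left out in turn, with DESeq2 and with scaling by library size alone (horizontal axis); filled points have an adjusted p under 0.05 and lines join the values of 1 gene. DUSP6, DUSP4, SPRED2 and DUSP5 stay filled throughout, whereas SPRY2 is filled only with all 6 libraries and without F2 replicate 3 and ranges from 0.26 to 0.67.

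By its mean change, SPRY2 stood in the middle of the feedback genes. Its log2 fold change of 0.49 ranked 5 of 9, and its 95% interval held the values of 6 of the other 8 tested genes, all but SPRED1 and PHLDA1. The median of those 8 was 0.505, which left SPRY2 0.017 below it, described here with no test since the genes were chosen with results known. This difference ran from -0.21 without F2 replicate 2 to 0.26 without F2 replicate 3.

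**Figure D3:**
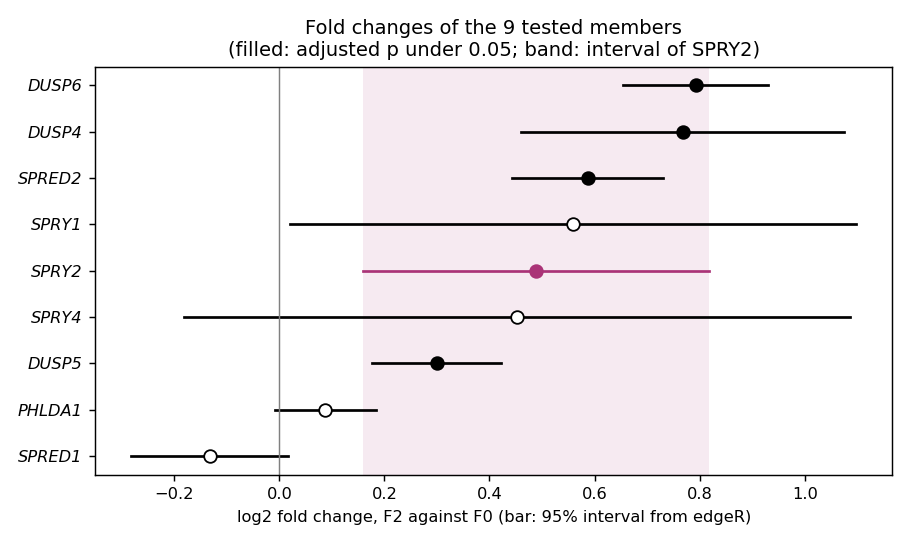
Log2 fold change of F2 against F0 (horizontal axis) for the 9 tested genes, ordered by size, with 95% intervals from edgeR as bars, filled points for an adjusted p under 0.05, and the interval of SPRY2 as a shaded band. SPRED1 and PHLDA1 lie outside the band, and the intervals of SPRY1, SPRY4, DUSP4 and SPRY2 are the widest.

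By library, SPRY2 departed in F2 from the median of the other feedback genes, which themselves had no order of F2 libraries in common. SPRED1 and DUSP6 had the same order of F2 libraries as SPRY2, with smaller differences between libraries. When each gene was centered on its mean log2 CPM over the 6 libraries, SPRY2 differed from the median of the other 8 by 0.15, -0.034 and -0.044 in F0 replicates 1 to 3. In F2 the differences were 0.15, 0.38 and -0.55, so SPRY2 was above the other genes in replicate 2 and below them in replicate 3. Relative to DUSP6, there were 31.4, 31.7 and 32.5 SPRY2 counts per 100 DUSP6 counts in the F0 libraries. The same ratio was 25.1, 33.0 and 19.2 in the F2 libraries. The F2 range thus took in all F0 values, and the same held for SPRY2 counts per 100 counts of SPRED2, DUSP4 or DUSP5. These ratios share the SPRY2 counts, so they are not separate results. The same did not hold for SPRED1, SPRY4 or PHLDA1. SPRED1 had 834, 786 and 849 counts in F0 and 671, 768 and 650 in F2. Relative to SPRED1, SPRY2 was higher in every F2 library than in every F0 library.

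SPRY2 was also the feedback gene with the largest spread in F2. Its highest F2 level was 1.77 times its lowest, where the factor was 1.03 for DUSP6, 1.05 for DUSP5, 1.10 for SPRED2, 1.17 for DUSP4, 1.20 for SPRED1, 1.35 for SPRY4, 1.51 for SPRY1 and 1.02 for PHLDA1. The SD of log2 CPM over the F2 libraries was 0.41 for SPRY2 and from 0.018 to 0.30 for the other 8, while counting error alone would give SPRY2 about 0.10. In F0 the SD of SPRY2 was 0.057, less than in F2. It was also less than the counting error of about 0.10 in F2, although F0 counts were lower on average. The 3 F0 values therefore do not establish a small spread in F0. Of the 1310 tested genes with a mean within 25% of that of SPRY2, 0.534% had a larger SD in F2 and 86.8% had a larger SD in F0, given as a description with no test. The feedback genes did not share a highest F2 library, since replicate 2 was highest for 6 of the 9 (SPRY2, SPRY4, SPRED1, DUSP5, DUSP6 and PHLDA1) and replicate 3 for SPRY1, SPRED2 and DUSP4. The labels state no difference between the F2 replicates other than their number. Over all genes, F2 replicate 2 differed most from the other F2 replicates, and whether this bears on SPRY2 was not tested.

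**Figure D4:**
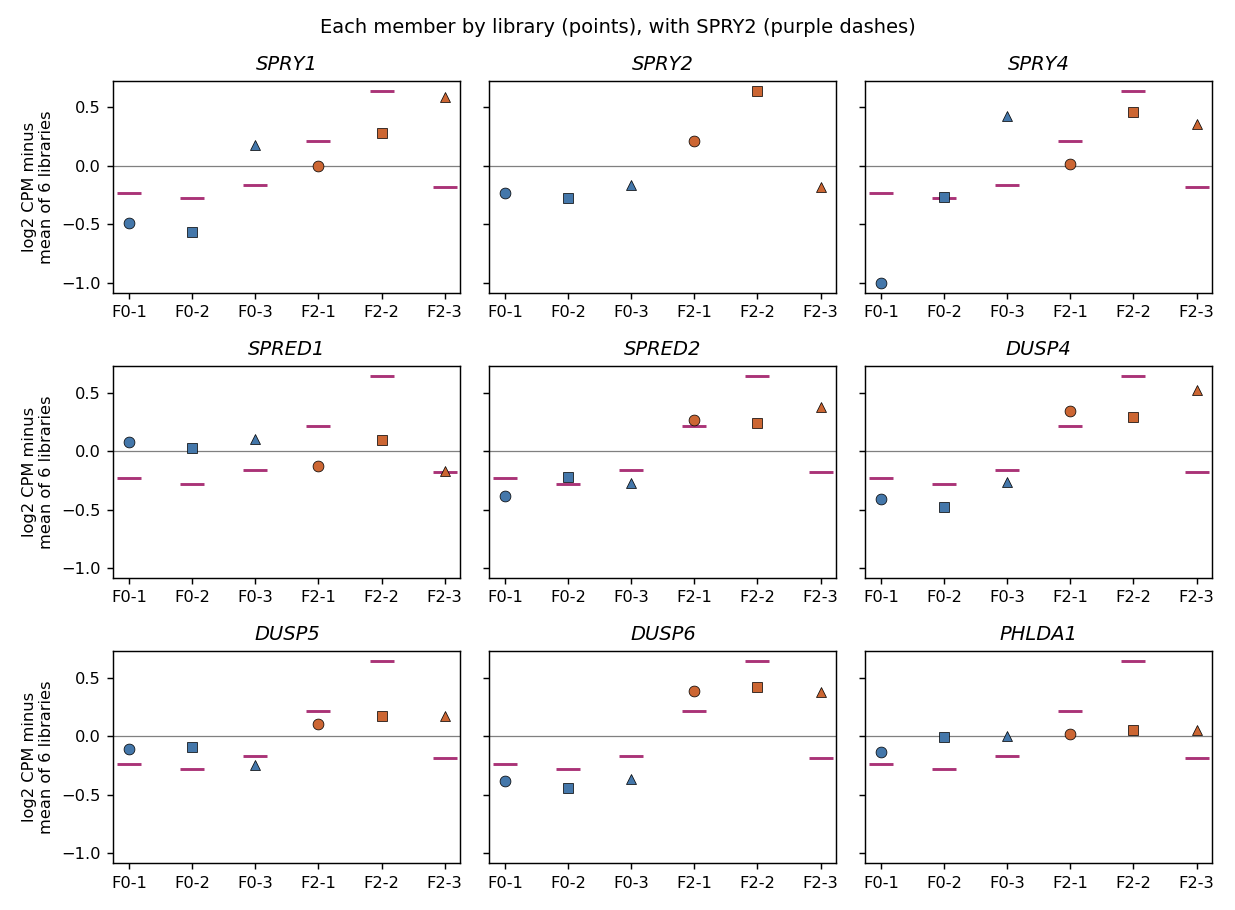
Log2 CPM minus the gene's mean over 6 libraries (vertical axis) in each F0 and F2 library (horizontal axis) for the 9 tested genes, shown as points, with the values of SPRY2 repeated as dashes in each panel. SPRY2 lies above the other genes in F2 replicate 2 and below all of them in F2 replicate 3, where SPRED1 is closest to it.

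Likeness to SPRY2 was measured as the root mean square difference between centered log2 CPM values over the 6 libraries, where smaller means more alike, for 65 tested genes of the ERK pathway. The closest feedback gene of the set was DUSP5, with 0.26, followed by DUSP6 with 0.28, SPRED2 with 0.29, PHLDA1 with 0.30, SPRED1 with 0.34 and DUSP4 with 0.35. SPRY1, with 0.42, and SPRY4, with 0.47, were the least alike of the set despite being paralogs, and these are also the genes with the fewest counts. Over the whole pathway DUSP7 (0.20), IER3 (0.22) and ERRFI1 (0.23) came closest, and DUSP5 ranked 6 of 65. Small values also arise where a gene changes little, so the measure does not separate a like direction from a like size.

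Other genes of the pathway were taken from 4 lists, 61 genes in all, of which 57 were tested and 19 passed the threshold, 12 upward and 7 downward in F2. That is 33.3% of the tested genes, beside the 18.2% of all genes given above, and the median log2 fold change was -0.024. Unlike in the set of feedback genes, where all 5 calls were higher, calls in these lists went both ways. These shares are descriptions, and no test of the lists was made.

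Of 15 receptor and RAS brakes, all tested, 5 passed the threshold, 3 of them higher and 2 lower in F2, and the list had a median log2 fold change of -0.024. DAB2IP, a RAS GTPase-activating protein, fell from 31.3 ± 0.865 to 18.6 ± 0.980 CPM (SD, n = 3 each), which is a log2 fold change of -0.75 (adjusted p = 1.4e-06, edgeR). RASA2, of the same class, rose from 27.5 ± 2.25 to 35.3 ± 1.65 CPM, with 0.36 (adjusted p = 0.0027). ERRFI1, a feedback inhibitor of the EGF receptor, rose from 85.2 ± 2.90 to 102 ± 4.17 CPM, with 0.26 (adjusted p = 0.0015). RASA1, a further GTPase-activating protein, was lower (-0.27, adjusted p = 0.039), but in only 1 of 6 fits without 1 library, and the remaining call was that of RASAL2 (0.23, adjusted p = 0.020, in 2 of those 6 fits), named after its value was seen.

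Of 7 other MAP kinase phosphatases, all tested, only DUSP7 passed the threshold, with a list median of -0.10. DUSP7, a cytoplasmic ERK phosphatase related to DUSP6, went from 9.98 ± 1.28 to 13 ± 1.25 CPM (SD, n = 3 each), which is a log2 fold change of 0.38 (adjusted p = 0.034, edgeR). This call held in 2 of 6 fits without 1 library and not with DESeq2 (adjusted p = 0.085). The stress-induced phosphatase gene DUSP1, named after its value was seen, had 51.4 ± 5.17 CPM in F0 beside 52.4 ± 5.22 CPM in F2, a log2 fold change of 0.030 (adjusted p = 0.845, edgeR).

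Among genes that ERK drives in transcription, 11 of 14 were tested and 5 passed the threshold, 4 of them higher and 1 lower, with a list median of 0.081. IER3, an early response gene, rose from 531 ± 52.8 to 685 ± 43.3 CPM (SD, n = 3 each), with a log2 fold change of 0.37 (adjusted p = 2.2e-04, edgeR). FOSL1, which encodes the AP-1 subunit FRA-1, rose from 125 ± 5.59 to 160 ± 9.40 CPM (0.36, adjusted p = 7.2e-05). ETV5, an ETS family transcription factor gene, rose from 82.3 ± 2.59 to 102 ± 5.56 CPM (0.31, adjusted p = 4.1e-04). EGR1, an immediate early zinc finger gene, was lower, from 37.8 ± 3.38 to 31.4 ± 1.17 CPM (-0.27, adjusted p = 0.019), a call that held in 2 of 6 fits without 1 library. The remaining call was CCND1, which encodes cyclin D1 (0.18, adjusted p = 0.0050, edgeR), named after its value was seen.

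In the cascade from receptor to ERK, 24 of 25 genes were tested and 8 passed the threshold, 4 of them higher and 4 lower, with a list median of -0.039. FGFR3, a fibroblast growth factor receptor gene, fell from 1.65 ± 0.419 to 0.707 ± 0.175 CPM (SD, n = 3 each), which is a log2 fold change of -1.21 (adjusted p = 0.017, edgeR) and the 1 call of at least 2-fold in the 4 lists. It held in 4 of 6 fits without 1 library and not with DESeq2 (adjusted p = 0.066). MET, the receptor of hepatocyte growth factor, rose from 99.3 ± 5.20 to 142 ± 7.08 CPM (0.52, adjusted p = 1.1e-06). The kinase genes BRAF (0.45, adjusted p = 0.0062) and MAP2K1, which encodes MEK1 (0.30, adjusted p = 0.0045), also rose. The other calls, named after their values were seen, were EGFR (0.14, adjusted p = 0.040), FGFR1 (-0.23, adjusted p = 0.0043), NRAS (-0.22, adjusted p = 0.018) and MAP2K2 (-0.18, adjusted p = 0.044, edgeR), and those of EGFR, NRAS and MAP2K2 each held in at most 2 of the 6 fits.

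**Figure D5:**
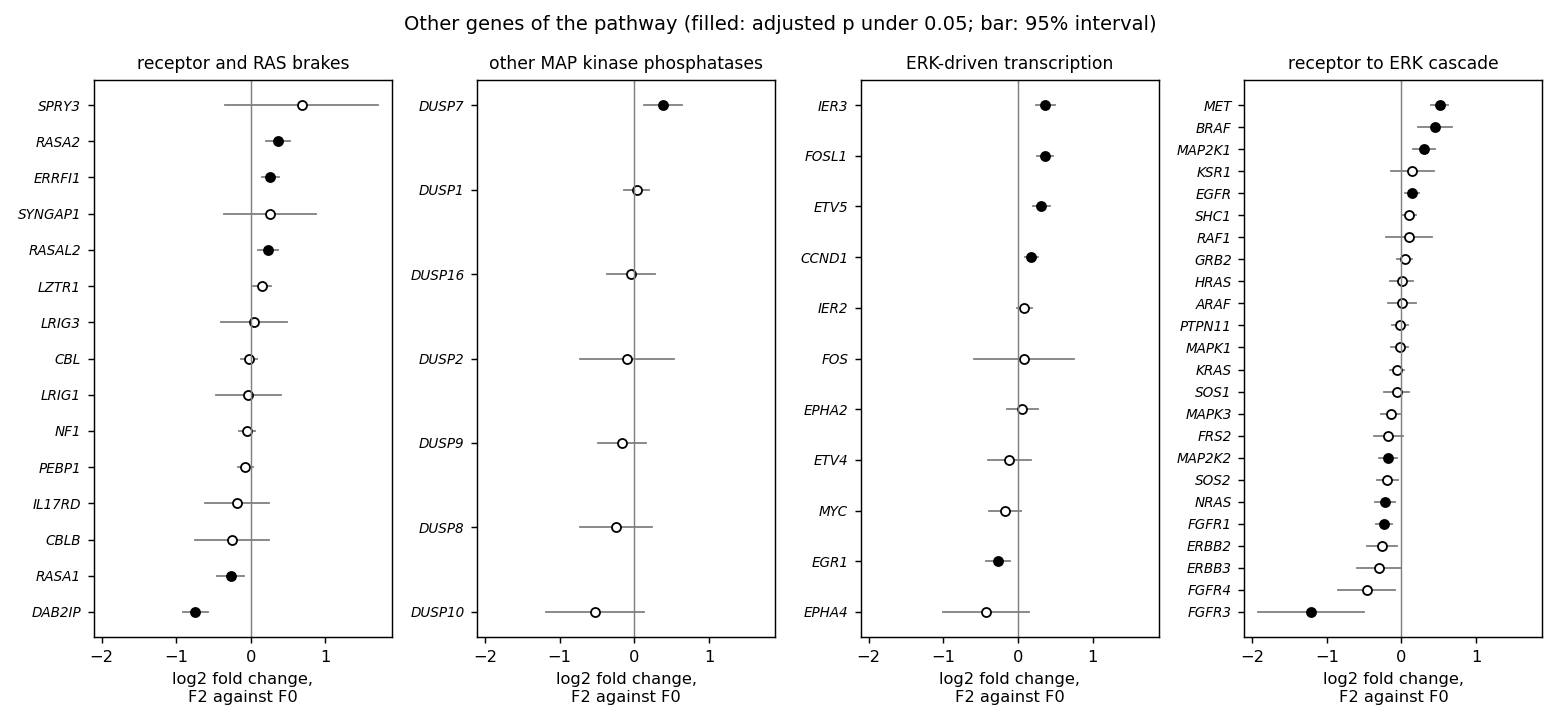
Log2 fold change of F2 against F0 (horizontal axes) for the 57 tested genes of 4 ERK pathway lists, 1 panel a list, with 95% intervals from edgeR as bars and filled points for an adjusted p under 0.05. Filled points lie on both sides of 0 in each panel except that of the other MAP kinase phosphatases, where DUSP7 is the only one.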

How the data were processed

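RNA of F0 and F2 DU145 (3 samples each) was profiled with the QuantSeq 3′ FWD kit from 500 ng of RNA, with single-end reads of 101 bases. The authors used the Bluebee platform for alignment and counting, and the deposited values are raw counts of each gene, not normalized. The submitters' processing notes name STAR 2.5.2a, HTSeq 0.6.0 and GRCh38. The strand setting of the counting is not given in the sources used here. Rows that name no gene stayed out of library sizes. Reads that fell outside genes made up 9.60–10.0% (F0) and 11.3–11.9% (F2) of reads with 1 placement, ambiguous reads 1.49–1.5% and 1.36–1.40%, and 92 spike-in rows had 0 counts. Libraries of PAIII, the rat line of the series, were not analysed here.

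From the deposited counts, genes with low values were removed by filterByExpr at a minimum count of 10 and a minimum total of 15, and the rest were scaled by TMM (factors of 1.03 in F0 and 0.968–0.971 in F2) and compared between F2 and F0 by edgeR 4.0.16 (R 4.3.3) with its quasi-likelihood F-test and no covariates. Benjamini-Hochberg adjustment ran over all 14316 tested genes with a threshold of 0.05. Intervals of 95% were built from the log2 fold change and its standard error. Alternatives were median-ratio size factors, library size alone, no filter beyond 1 count, a replicate block, a minimum of 10 counts in every library, no mitochondrially encoded genes, DESeq2 1.42.0, and each library left out in turn. On simulated counts for these 14316 genes edgeR recovered 70% of 50 genes changed by 0.5 and 89.6% of 48 genes changed by 1 on the log2 scale. Of all calls in that simulation 6.99% were false. Far fewer genes were changed there than were called in these data, so these shares may not carry over.

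Same-numbered F0 and F2 samples did not deviate together (correlations of 0.010, -0.010 and 0.029 over the tested genes), so the numbers were not taken to pair samples. Symbols were matched for 56104 of 60107 identifiers, and positions and sequences come from GENCODE 29. The genes named are the 10 feedback genes, up to 4 calls with the largest change in each pathway list, and for likeness the 3 closest pathway genes. The members and the lists were chosen with earlier results of these data known. Values of a list of prostate markers are not reported here.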

Additional observations from a re-analysis of the deposited data

How the results depend on the processing

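Between 4 and 5 of the feedback genes were past the threshold under all 13 alternatives, and DUSP6, DUSP4, SPRED2 and DUSP5 kept direction and call in each. SPRY2 was higher in F2 under all 13 but lost its call in 7 of them. These were library size alone (0.40, adjusted p = 0.0744, edgeR), DESeq2 (0.49, adjusted p = 0.0594) and 5 of the 6 fits without 1 library, where it ranged from 0.26 to 0.52. Without F2 replicate 3 SPRY2 kept its call, at 0.67. PHLDA1 changed sign under library size alone (-0.0023), which shifts all genes downward. The count over all genes was 2599 and ranged from 1670 (without F0 replicate 2) to 2621 with a library left out, and that of the pathway lists was 19 and ranged from 12 (without F2 replicate 1) to 18. Under library size alone these counts were 3637 and 23, and with DESeq2 they were 1920 and 15. Leaving out the mitochondrially encoded genes left the log2 fold change of SPRY2 at 0.49.

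With the replicate number as a block, 2867 genes passed the threshold, SPRY2 was at 0.47 (adjusted p = 0.019, edgeR) and 5 feedback genes were called. SPRY1, SPRY4 and SPRED3 had the fewest counts of the set. With 3 samples a population, no permutation p can be under 0.1. PCR duplicates remain in the counts, and 3′ counts say nothing of ERK phosphorylation or of protein.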
